A study of Mus musculus with 27 samples.

Results

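The choroid plexus, a fold of vascular tissue hanging into the ventricles, carries a secretory epithelium that makes cerebrospinal fluid and closes the blood-cerebrospinal fluid barrier. Its epithelial cells are known for transthyretin at very high levels and for a set of transporters, channels and receptors that face either the blood or the fluid. The 9 genes described here were chosen by name as markers of that epithelium. They are Ttr, Folr1, Kl, Clic6, Aqp1, Otx2, Kcne2, Sostdc1 and Prlr, out of 55487 genes in the count table, and 8 of them had enough reads to be tested. Folr1 did not reach the minimum of 10 counts in 4 libraries.

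Bulk RNA-seq was done on hippocampus and cortex of male C57Bl/6J wild-type mice, 8 weeks old when assigned to treatment, that then received a fluid into the right lateral ventricle for 14 days at 0.25 μl/h from an implanted osmotic pump. The fluids were PBS, a control human IgG (pCtrl), or α-IgLON5#1, antibodies purified from the plasma of a patient with anti-IgLON5 disease, and tissue came from the side opposite to the cannula. The control antibody is a nonreactive monoclonal in the sample labels and serum IgG of a healthy individual in the methods of the study, so its exact nature was not settled here. All animals, PBS included, carried the cannula, and no group without surgery was analysed here. Hippocampus gave 5 PBS, 4 pCtrl and 4 α-IgLON5#1 libraries, cortex gave 5, 5 and 4, and 13 of the animals gave both tissues. Samples are called below by the mouse number in their labels.

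The libraries held 19385642 to 58550621 counts, with a median of 34061205, so that 3 counts of a gene correspond to 0.0492 to 0.169 CPM, the counts scaled to an equal library size. The tissue labels fitted the markers, since all 8 hippocampal neuron genes examined were higher in hippocampus and 7 of 8 cortical neuron genes were lower. The labels also enter the cell type as neurons, but every library held markers of meningeal and stromal fibroblasts, summing to 68.9 to 505 CPM. Some hippocampi stood apart. That of PBS mouse 74 held 3889 CPM of 6 pituitary markers, led by growth hormone, where the other 26 libraries held 1.92 to 220 CPM. Those of PBS mice 74 and 32 held the highest sums of 8 ependymal markers, 22.5 and 19.5 CPM, where the next library held 10.4 CPM. Those of pCtrl mice 37 and 10 held 289 and 433 CPM of hippocampal neuron markers, where the other hippocampi held 657 to 1096 CPM, and the highest sums of cortical neuron markers among hippocampi (440 and 371 CPM).

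Transcript starts of these genes are shown for the members called between the tissues, Kl and Prlr, and for Otx2, which encodes a homeodomain factor needed to form this epithelium. Each run is the 250 bases before a RefSeq transcript start on build GRCm38.p6, given 5′ to 3′ on the strand of the gene, and RefSeq start windows were at hand for 5 members, Prlr, Kl, Aqp1, Kcne2 and Otx2. Capitals mark TAATCC, the core recognised by Otx-type homeodomains, or its reverse GGATTA. Kl lies on the plus strand, and its run at chr5:150952357-150952606 ends just before the one transcript start in the table. Prlr has 3 starts in the table, and the most upstream one, at chr15:10176988-10177237 on the plus strand, is shown. For Otx2, on the minus strand, the start at chr14:48665110-48665359 is the one of 4 with a match.
Kl: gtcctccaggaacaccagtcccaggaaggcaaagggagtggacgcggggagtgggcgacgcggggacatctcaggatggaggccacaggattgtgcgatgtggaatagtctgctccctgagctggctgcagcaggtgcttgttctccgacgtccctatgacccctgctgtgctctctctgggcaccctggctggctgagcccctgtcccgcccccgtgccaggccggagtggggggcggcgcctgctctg
Prlr: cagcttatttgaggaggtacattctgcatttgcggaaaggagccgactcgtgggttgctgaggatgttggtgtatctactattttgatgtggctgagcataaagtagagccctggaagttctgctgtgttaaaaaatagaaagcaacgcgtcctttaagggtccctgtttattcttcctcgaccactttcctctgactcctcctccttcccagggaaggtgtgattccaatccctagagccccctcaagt
Otx2: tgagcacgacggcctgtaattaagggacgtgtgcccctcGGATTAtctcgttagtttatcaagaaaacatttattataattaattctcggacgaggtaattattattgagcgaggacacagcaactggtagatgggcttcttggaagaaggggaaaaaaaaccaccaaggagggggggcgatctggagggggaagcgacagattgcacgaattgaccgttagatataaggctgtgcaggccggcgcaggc
The core was found, on either strand, in 1 of the 5 members with a window, and in Otx2 it stood 211 bases before the start on the opposite strand. Of all 32851 windows of 250 bases before to 50 bases after a start, 7.06% held it, and 8.14% of 27025 genes had it in at least 1 window. The absence of these letters elsewhere describes those windows only.

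By mean CPM, not scaled by length, 48.9% of the genes tested lay below Kl, 35.5% below Prlr and 0.0839% to 22.1% below the other members except Ttr. Transthyretin (Ttr, ENSMUSG00000061808.4, chr18:20665280-20674321), the carrier of thyroid hormone and retinol-binding protein and among the most abundant transcripts of the epithelium, averaged 1.46 CPM ± 1.08 (SD, n = 27) and ranged from 0.188 CPM (6 counts) in the cortex of pCtrl mouse 10 to 4.27 CPM (174 counts) in the hippocampus of pCtrl mouse 75. For Ttr, 28.9% of the genes tested had a lower mean CPM. In bulk samples fewer cells of a type and less RNA per cell cannot be told apart. Ordered by the median CPM per kilobase of exon over the 27 libraries, the genes ran Ttr (1.01), Kl (0.804), Sostdc1 (0.411), Clic6 (0.151), Prlr (0.148), Aqp1 (0.143), Kcne2 (0.0463), Otx2 (0.0425) and Folr1 (0.0355). The order pools tissues in which some of the genes differ. In hippocampus the median of Kl (1.69) stood above that of Ttr (1.01), and that of Prlr (0.248) above that of Clic6 (0.146), whereas in cortex Ttr (1.13) stood above Kl (0.480) and Clic6 (0.157) above Prlr (0.109). The ranges of neighbours in the pooled order overlapped, so these libraries do not resolve it.

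**Figure D1:**
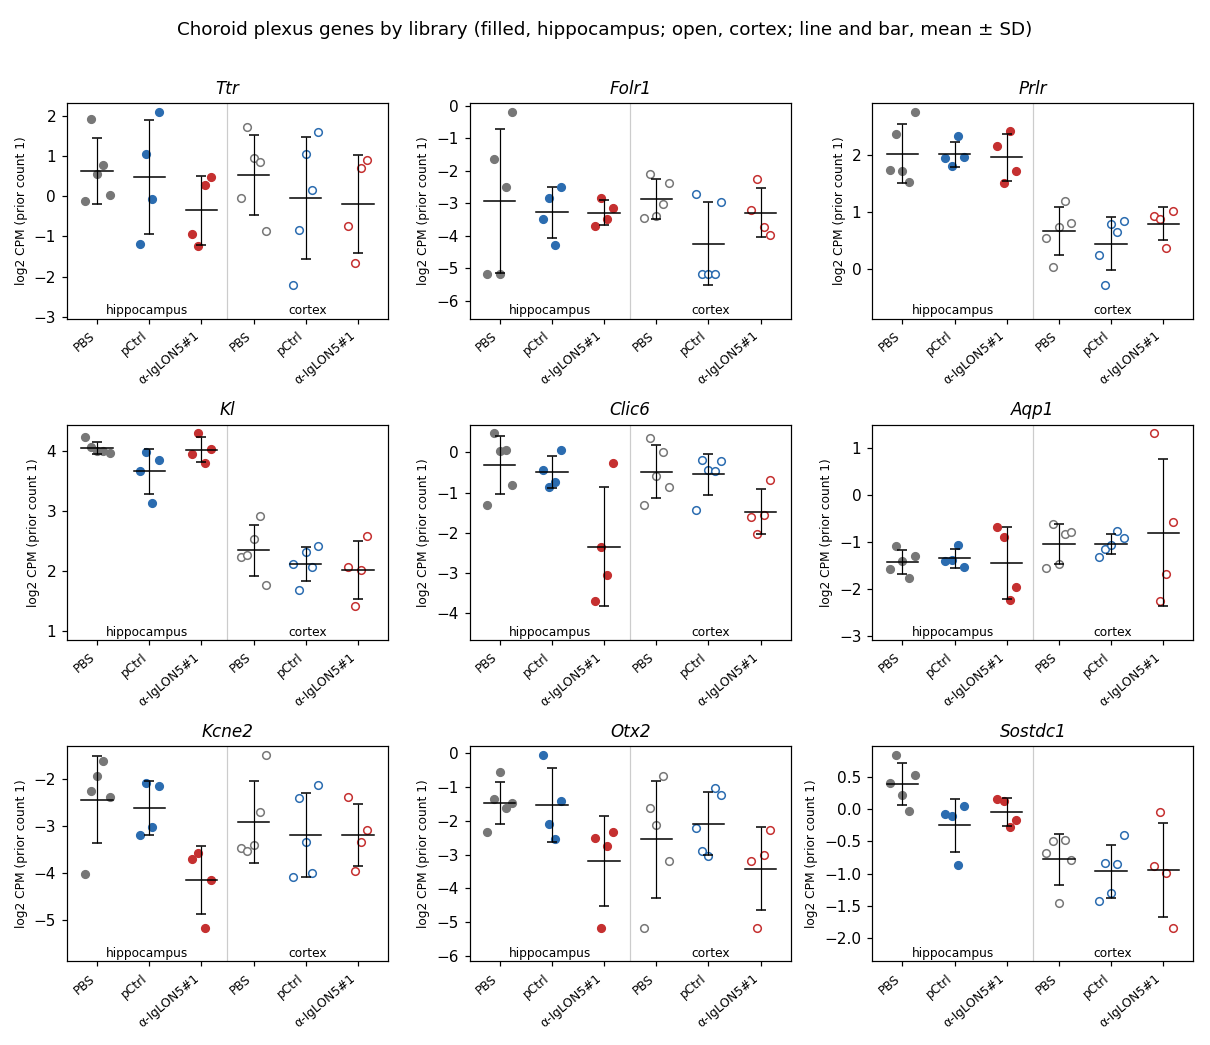
Level of each of the 9 genes by library, as log2 CPM with a prior count of 1 on the vertical axis of each panel, for the 3 treatments in hippocampus (filled points) and cortex (open points). Horizontal lines and bars give the mean and SD of each group, and a library without a count lies at the bottom of its panel. Kl and Prlr were higher in all hippocampi than in any cortex.

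Kl, Prlr and Sostdc1 were higher in hippocampus than in cortex by the adjusted p, Kl and Prlr by more than 2-fold. Ttr differed between the tissues by only 0.08 on the log2 scale. Pearson's r of log2 CPM with Ttr was 0.04 for Kl, 0.09 for Prlr and 0.22 for Sostdc1 in hippocampus. In cortex it was 0.68, 0.17 and -0.06. Which cells carried these genes, and the part of the epithelium in their tissue differences, was not tested. Klotho (Kl, ENSMUSG00000058488.7, chr5:150952607-150993817), a membrane protein that serves as co-receptor for fibroblast growth factor 23 and is shed into the cerebrospinal fluid, stood at 15.3 CPM ± 2.67 (SD, n = 13) in hippocampus and 4.62 CPM ± 1.25 (SD, n = 14) in cortex. The hippocampi ranged from 8.73 through a median of 15.8 to 19.5 CPM and the cortices from 2.63 through 4.48 to 7.50 CPM, so the tissues did not overlap. The log2 fold change was 1.71 (SE 0.117, 95% interval 1.47 to 1.95, edgeR adjusted p = 6.94e-12), a 3.27-fold difference. The lowest hippocampal value was that of pCtrl mouse 37, whose hippocampal neuron markers also summed to the lowest value of any hippocampus, 289 CPM against 433 to 1096 CPM in the other 12. The part of that marker difference in the Kl value was not tested.

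The prolactin receptor (Prlr, ENSMUSG00000005268.20, chr15:10177238-10349180) binds the hormone prolactin and is found at high levels in the choroid plexus. It averaged 4.09 CPM ± 1.15 (SD, n = 13) in hippocampus, from 2.82 through a median of 3.80 to 6.69 CPM, and 1.57 CPM ± 0.403 (SD, n = 14) in cortex, from 0.799 through 1.67 to 2.27 CPM. The lowest hippocampus lay above the highest cortex, and the log2 fold change was 1.36 (SE 0.149, 95% interval 1.06 to 1.67, edgeR adjusted p = 2.66e-08). The highest Prlr value came from the hippocampus of PBS mouse 74, the library with the pituitary transcripts, and without it the log2 fold change was 1.29. A second gene model, Gm21973, overlaps Prlr on the same strand, and reads of that stretch may have been counted for either or for none.

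Sostdc1 (ENSMUSG00000036169.6, chr12:36314139-36318452), which encodes a secreted antagonist of BMP and Wnt ligands, was also higher in hippocampus by the test, at 1.06 CPM ± 0.310 (SD, n = 13) against 0.539 CPM ± 0.183 (SD, n = 14) in cortex. Hippocampi ran from 0.523 through a median of 1.01 to 1.77 CPM and cortices from 0.251 through 0.529 to 0.938 CPM, so here the tissues overlapped. The log2 fold change of 0.94 (SE 0.168, edgeR adjusted p = 4.74e-05) stayed under the fold threshold of 2 set for a call. By that rule, an adjusted p under 0.05 with a fold above 2, 2 of the 8 tested members were called, against 4.95% of all genes tested, and by the adjusted p alone 3 of 8 passed, against 43.5% of all genes tested. Where many genes differed between hippocampus and cortex, the share among 8 members by the adjusted p alone lay near that of all genes.

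The other 5 tested members did not pass between tissues. The fit behind these values, and those of Kl, Prlr and Sostdc1 above, did not pair the tissues of a mouse. The water channel gene Aqp1 (ENSMUSG00000004655.5, chr6:55336432-55348555) had a log2 fold change of -0.69 (SE 0.287, edgeR adjusted p = 0.0532), with 0.364 CPM ± 0.112 (SD, n = 13) in hippocampus and 0.587 CPM ± 0.552 (SD, n = 14) in cortex. The cortical SD came with a single high library, α-IgLON5#1 mouse 8 at 2.45 CPM. Ttr differed by 0.08 on the log2 scale (SE 0.388, 95% interval -0.72 to 0.88, edgeR adjusted p = 0.893). Clic6, Kcne2 and Otx2 had log2 fold changes of 0.00, -0.16 and 0.53, with intervals that reached from -0.93 to 1.44. Folr1, the folate receptor of the epithelium (ENSMUSG00000001827.12, chr7:101858331-101870788), had 0 to 36 counts per library, the highest in the hippocampus of PBS mouse 74 and the next, 18 counts, in that of PBS mouse 32. Those were also the 2 libraries with the highest ependymal sums, whose part in the Folr1 counts was not tested. Since Folr1 overlaps Anapc15 on the other strand, its few counts carry the further doubt of how strand was handled in the counting.

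**Figure D2:**
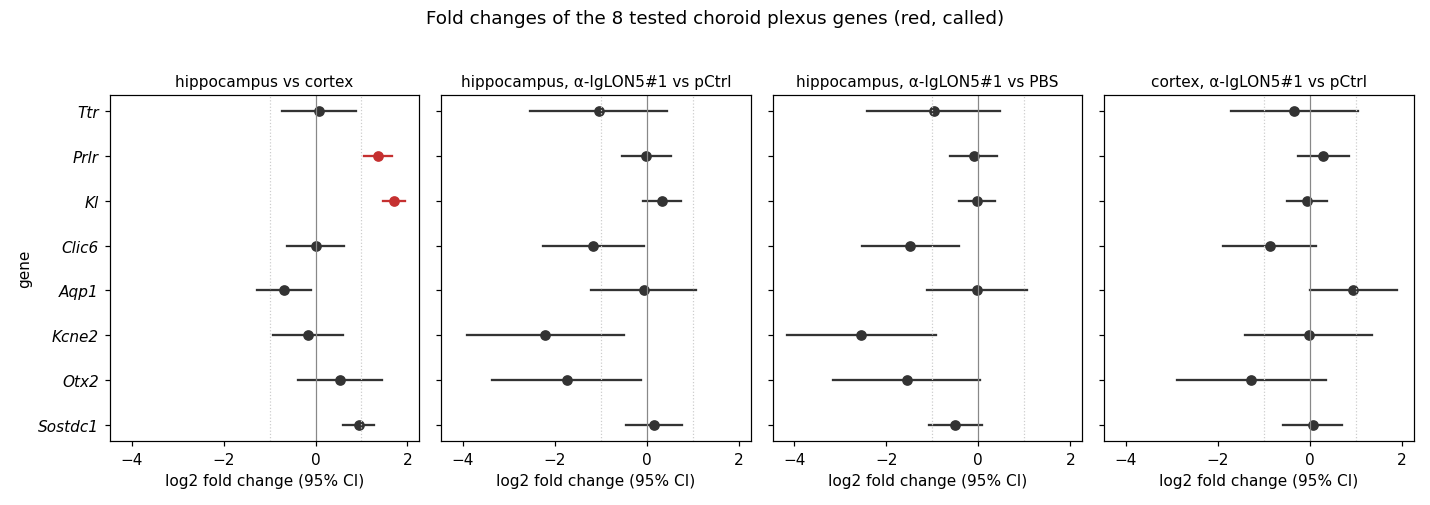
Log2 fold change (points) with its 95% interval (lines) for the 8 tested genes in 4 comparisons, from the edgeR fit across all 27 libraries. Red marks called genes, and dotted lines mark a 2-fold difference. Kl and Prlr are called between tissues and no gene is called between treatments.

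The study asked what the infusion of α-IgLON5#1 changes in the brain, and the treatments were compared here for the tested members. The libraries were of dissected hippocampus and cortex, and none was of choroid plexus itself. Ttr averaged only 1.46 CPM in them, so the values below describe those tissues and not the response of the epithelium. None of the 8 tested members was called in any of the 6 comparisons between treatments by edgeR, with or without the fold threshold, nor by DESeq2 with it. In hippocampus, α-IgLON5#1 against pCtrl called 2.45% of all genes tested, or 7.01% by the adjusted p alone, and against PBS 2.67%, or 4.29% by the adjusted p alone. The first share stands for 496 genes, and 199 were called without pCtrl mice 10 and 37. In cortex, α-IgLON5#1 against pCtrl called 2.16%, or 3.46% by the adjusted p alone, and against PBS 2.24%, or 3.05% by the adjusted p alone. Between pCtrl and PBS, 0.0641% were called in hippocampus, or 0.192% by the adjusted p alone, and 0% by either rule in cortex. A count of 0 of 8 lies near each of these backgrounds. At an unadjusted p under 0.05, 3 members lay lower in α-IgLON5#1 than in pCtrl hippocampus (Otx2, Kcne2 and Clic6), where 21.9% of all genes passed that mark. Kcne2 counts here and against PBS although only control libraries carried it through the count filter, as described with its values. Against PBS, 2 lay lower in hippocampus (Kcne2 and Clic6), beside 15.3% of all genes, and 1 in cortex (Clic6), beside 9.26%. In cortex against pCtrl it was 0 of 8, beside 15.4%. Between pCtrl and PBS it was 1 in hippocampus (Sostdc1), beside 14% of all genes, and 0 in cortex, beside 8.14%.

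Ttr ranged widely within each treatment. In hippocampus, the PBS mice 14, 32, 33, 38 and 74 had 0.887, 3.79, 1.44, 1.69 and 0.989 CPM, the pCtrl mice 10, 15, 37 and 75 had 0.409, 2.05, 0.928 and 4.27 CPM, and the α-IgLON5#1 mice 8, 9, 16 and 17 had 0.492, 0.394, 1.20 and 1.38 CPM. In cortex, the PBS mice in that order had 0.939, 3.31, 1.92, 1.77 and 0.522 CPM, the pCtrl mice 10, 11, 15, 37 and 75 had 0.188, 0.532, 2.05, 1.09 and 3.03 CPM, and the α-IgLON5#1 mice had 0.571, 0.289, 1.60 and 1.85 CPM. All groups overlapped, and the highest values belonged to PBS mouse 32 and pCtrl mouse 75 in both tissues. The hippocampal log2 fold change of α-IgLON5#1 was -1.05 against pCtrl (SE 0.726, 95% interval -2.54 to 0.44, edgeR adjusted p = 0.428) and -0.97 against PBS (SE 0.701, 95% interval -2.41 to 0.47, edgeR adjusted p = 0.574). In cortex it was -0.33 against pCtrl (SE 0.674, edgeR adjusted p = 0.871) and -0.59 against PBS (SE 0.666, edgeR adjusted p = 0.895). Between pCtrl and PBS it was 0.08 in hippocampus (SE 0.631, edgeR adjusted p = 0.976) and -0.26 in cortex (SE 0.630, edgeR adjusted p = 0.958). Single libraries moved these values, the hippocampal one against pCtrl to -0.31 without pCtrl mouse 75 and the one against PBS to -0.45 without PBS mouse 32. Without pCtrl mice 10 and 37 the first was -1.77 (SE 0.757, edgeR adjusted p = 0.388). The difference between tissues in the response to α-IgLON5#1 over pCtrl was -0.71 (SE 0.989, edgeR adjusted p = 0.848), and 0% of all genes tested were called in that interaction by either rule. Differences of 2-fold and more lay inside most of these intervals and could not be seen at this spread.

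The same mouse gave nearly the same Ttr level in both tissues. Over the 13 mice with both, the log2 CPM in hippocampus and cortex correlated with Pearson's r = 0.923 (permutation p = 1e-05, the smallest that 100000 resamples can give) and Spearman's rho = 0.940 (permutation p = 3e-05). Over the 9 such correlations computed, 1 per gene, these p-values became 9e-05 and 0.00027 after Benjamini-Hochberg adjustment, both from permutation. The ratio of hippocampus to cortex lay within 2-fold in 12 of 13 mice, the exception being pCtrl mouse 10 at 2.18. Without the 2 mice farthest from the hippocampal median, 32 and 75, r was 0.924 (n = 11), and after removal of the treatment means it was 0.939. Within the 7 mice numbered 8 to 17 r was 0.952 and within the 6 numbered 32 to 75 it was 0.873, and leaving out any 1 mouse kept it between 0.904 and 0.938. Across all 20271 genes tested the median of this r was 0.221, and 1.05% reached the value of Ttr. With the mouse as a block, the tissue difference of Ttr came to 0.01 on the log2 scale, and its SE fell from 0.388 to 0.121 (edgeR adjusted p = 0.978).

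**Figure D3:**
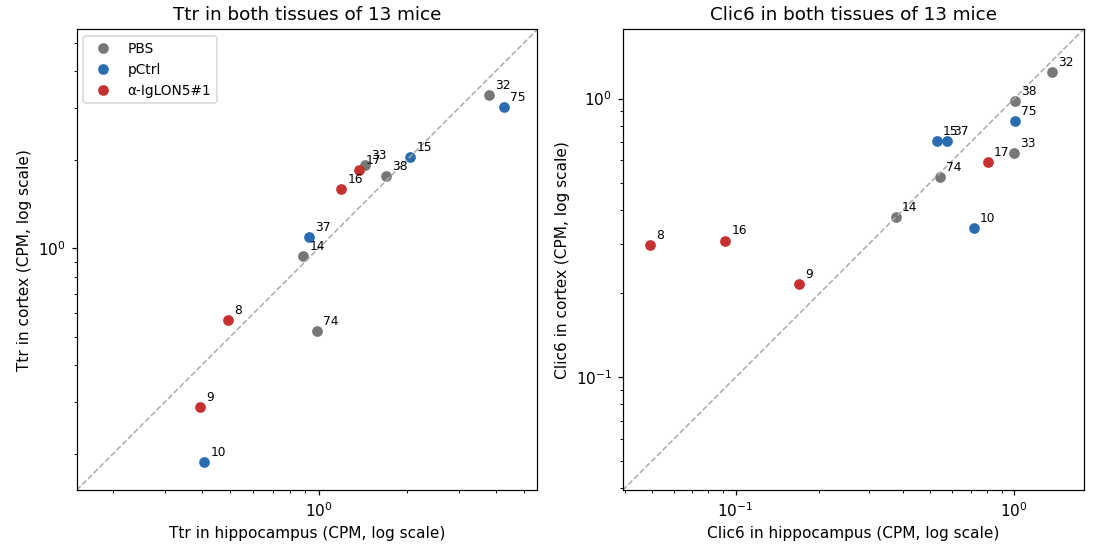
Level in cortex (vertical axis) against hippocampus (horizontal axis) of the same mouse for Ttr (left) and Clic6 (right), in CPM on log scales, with mouse numbers and 1 colour per treatment. The dashed line marks equal levels. For Ttr, all mice but number 10 lie within 2-fold of it, whereas for Clic6 the α-IgLON5#1 mice 8 and 16 lie far to its left.

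Levels of some other marker lists were shared between the tissues of a mouse as well. The summed pituitary markers correlated with r = 0.853 and rho = 0.940 (permutation p = 9e-05 and 1e-05, adjusted over 9 lists 0.00081 and 9e-05), and the summed meningeal and stromal fibroblast markers with r = 0.856 and rho = 0.824 (permutation p = 0.00033 and 0.00078, adjusted 0.00148 and 0.00351). Without the 2 mice farthest from the median these r were 0.965 and 0.565 (n = 11). The summed ependymal markers gave r = 0.557 and rho = 0.423 (permutation p = 0.0435 and 0.152, adjusted 0.0783 and 0.255), which fell to r = 0.01 without 2 mice. Cortical neuron markers gave r = 0.672 and rho = 0.670 (permutation p = 0.0114 and 0.0152, adjusted 0.0342 and 0.0374), with r = 0.454 without 2 mice. Thalamus and habenula markers gave r = 0.596 and rho = 0.659 (permutation p = 0.028 and 0.0166, adjusted 0.063 and 0.0374), with r = 0.579 without 2 mice, so that rho passed and r did not. The other choroid plexus epithelium genes gave r = 0.537 and rho = 0.286 (permutation p = 0.0653 and 0.345, adjusted 0.095 and 0.345), with r = -0.15 without 2 mice, and did not pass. The largest means in that sum were Enpp2 (149 CPM), also used by oligodendrocytes, and Slc12a2 (81.4 CPM), while Kcnj13 averaged 0.769 CPM and Cldn2 0.306 CPM. The sum is therefore no measure of the epithelium alone. Mouse 9, low in Ttr, held the lowest fibroblast sums (68.9 CPM in hippocampus and 86.6 CPM in cortex), while mouse 8, also low in Ttr, held 414 and 361 CPM. The part of these lists in the shared Ttr level was not tested.

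Clic6 (ENSMUSG00000022949.9, chr16:92485736-92541243), a chloride intracellular channel protein of secretory epithelia, was the other member whose levels correlated between the tissues of a mouse, at r = 0.807 and rho = 0.835 (permutation p = 0.00058 and 0.00072, adjusted over the 9 genes 0.00261 and 0.00324). Without 2 mice r was 0.844 (n = 11), after removal of the treatment means 0.651, and 4.19% of all genes tested reached this r. The remaining 7 genes had r between -0.44 and 0.57, with adjusted permutation p-values of 0.124 and above. Within a tissue Clic6 was the member that followed Ttr to a like degree in both tissues, with r = 0.607 in hippocampus (n = 13, rho = 0.670, permutation p = 0.0277 and 0.0141) and 0.667 in cortex (n = 14, rho = 0.640, permutation p = 0.00926 and 0.0164). None of the 16 correlations with Ttr passed after adjustment, the lowest adjusted permutation p being 0.0741, for Clic6 and Kl in cortex. Kl followed Ttr with r = 0.676 in cortex (rho = 0.714, permutation p = 0.00784 and 0.00555) and r = 0.04 in hippocampus (rho = 0.04, permutation p = 0.890 and 0.892). Without the 2 libraries farthest from the median of Ttr, r for Clic6 was 0.479 and 0.493, and for Kl in cortex 0.681.

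Clic6 also had the lowest values in α-IgLON5#1 mice. The hippocampal PBS mice 14, 32, 33, 38 and 74 had 0.375, 1.36, 0.997, 1.01 and 0.542 CPM, the pCtrl mice 10, 15, 37 and 75 had 0.715, 0.526, 0.571 and 1.01 CPM, and the α-IgLON5#1 mice 8, 9, 16 and 17 had 0.0492, 0.169, 0.0919 and 0.802 CPM. Mice 8, 9 and 16, with 1, 3 and 3 counts, lay below all 9 controls, and mouse 17, with 28 counts, lay among them. The log2 fold change was -1.16 against pCtrl (SE 0.537, edgeR adjusted p = 0.201) and -1.48 against PBS (SE 0.514, edgeR adjusted p = 0.119), so neither passed. Without mouse 17, which leaves 3 α-IgLON5#1 libraries, both were called, at -2.77 (SE 0.618, edgeR adjusted p = 0.00635) and -3.09 (SE 0.597, edgeR adjusted p = 0.00129). Without α-IgLON5#1 mouse 16 they were -0.82 and -1.13, and without mouse 8 the edgeR adjusted p rose to 0.430 and 0.344. In cortex the α-IgLON5#1 mice in that order had 0.299, 0.217, 0.310 and 0.592 CPM, against 0.344 to 0.852 CPM in pCtrl and 0.376 to 1.24 CPM in PBS, with log2 fold changes of -0.87 (SE 0.490, edgeR adjusted p = 0.411) and -1.02 (SE 0.481, edgeR adjusted p = 0.517). Mouse 17 was the highest of its group here too and overlapped the controls. A transcript model, 2410124H12Rik, overlaps Clic6 on the same strand.

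Kcne2 (ENSMUSG00000039672.12, chr16:92292389-92298129), the beta subunit that tunes potassium channels of the epithelium, rested on very few reads. Hippocampal counts were 1, 11, 8, 10 and 7 in PBS mice 14, 32, 33, 38 and 74, 4, 11, 4 and 8 in pCtrl mice 10, 15, 37 and 75, and 1, 1, 0 and 1 in α-IgLON5#1 mice 8, 9, 16 and 17. The α-IgLON5#1 libraries (0 to 0.0563 CPM) did not overlap with pCtrl (0.0817 to 0.207 CPM) but did with PBS mouse 14. Between α-IgLON5#1 and pCtrl hippocampus the ranges of 11.7% of all genes tested did not overlap. Kcne2 reached the minimum of 10 counts in 4 libraries, all of them controls and 3 of them hippocampal, so it was tested only through groups in which it was high, and neither the lack of overlap nor the test below counts as support for a difference. Summed over libraries, 3 counts stood against 27, a ratio of 0.195 per unit of depth (95% exact Poisson interval 0.0378 to 0.632), and against 37 in PBS the ratio was 0.154 (0.0304 to 0.486). These intervals cover counting error only. The edgeR test gave an adjusted p of 0.106 against pCtrl and 0.0702 against PBS, and 0.152 and 0.0935 with every gene of at least 1 count in the fit. Without PBS mouse 14, the edgeR adjusted p against PBS was 0.0303, past the threshold, and without α-IgLON5#1 mouse 16 it was 0.165, with 0.218 against pCtrl. Without PBS mouse 32, PBS mouse 38 or pCtrl mouse 15, Kcne2 fell below the filter and was not tested. In cortex, the groups overlapped, at 1 to 6 counts in α-IgLON5#1, 1 to 6 in pCtrl and 2 to 12 in PBS.

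Otx2 (ENSMUSG00000021848.16, chr14:48657677-48673819), which Otx2os1 overlaps on the other strand and the gene model Gm49154 on the same strand, had 0.171, 0.361, 0.645, 0.297 and 0.330 CPM in the hippocampal PBS mice 14, 32, 33, 38 and 74, 0.940, 0.207, 0.143 and 0.344 CPM in the pCtrl mice 10, 15, 37 and 75, and 0.148, 0, 0.123 and 0.172 CPM in the α-IgLON5#1 mice 8, 9, 16 and 17. The α-IgLON5#1 values were at the low end of both control groups and overlapped with each. Otx2 reached 10 counts in 12 libraries, 11 of them controls, and in 5 outside the hippocampal controls, which meets the filter without those. The log2 fold change was -1.74 against pCtrl (SE 0.787, edgeR adjusted p = 0.190) and -1.56 against PBS (SE 0.781, edgeR adjusted p = 0.347). Without pCtrl mouse 10, which held 46 counts where the other 3 held 6 to 14, the first became -0.91 (edgeR adjusted p = 0.602). The pituitary sum of that library, 220 CPM, was the second highest of all, and the library with the highest, PBS mouse 74, held 0.330 CPM of Otx2. That pCtrl library also held the highest sum of 8 thalamus and habenula markers of all 27, 128 CPM, where the next held 96.0 CPM. The part of these tissues in its Otx2 level was not tested.

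For α-IgLON5#1 in hippocampus, Kl had a log2 fold change of 0.33 against pCtrl (95% interval -0.09 to 0.75) and -0.03 against PBS (95% interval -0.42 to 0.37), and Prlr had -0.01 (95% interval -0.55 to 0.52) and -0.10 (95% interval -0.61 to 0.41). Those intervals stop short of a 2-fold difference in either direction. Sostdc1 had 0.16 and -0.50, and its pCtrl hippocampi, 0.523 to 1.01 CPM, overlapped those of PBS, 0.950 to 1.77 CPM, only through mouse 75, at a log2 fold change of -0.66 (SE 0.264, edgeR adjusted p = 0.239). Aqp1 in cortex had 0.94 against pCtrl (SE 0.460, edgeR adjusted p = 0.327), where the mouse 8 value of 2.45 CPM stood against 0.180, 0.286 and 0.646 CPM in mice 9, 16 and 17. The fibroblast sum of that library was 361 CPM, within the range of the other cortices.

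A further 28 genes known from choroid plexus epithelium were looked at as a list, of which 22 were tested. None was called between treatments, where 0% to 2.67% of all genes tested were called. Between tissues 3 of 22 were called, beside 4.95% of all genes tested, with Car12, a carbonic anhydrase, and Slc29a4, a monoamine transporter, higher in hippocampus (log2 fold change 2.74 and 2.06) and the collagen gene Col8a1 lower (-1.49). The 5 with the highest mean CPM, which is not scaled by length and so gives no order of levels between genes, were Enpp2, Slc12a2, Igfbp2, Cab39l and Slc13a4, at 149, 81.4, 40.5, 27.4 and 25.8 CPM over the 27 libraries. These genes are also used by other cells of the brain, Enpp2 by oligodendrocytes and Igfbp2 and Slc13a4 by meningeal fibroblasts. Enpp2 (autotaxin) was lower in hippocampus than in cortex (-0.77, SE 0.0725, edgeR adjusted p = 2.16e-09), under the fold threshold, and so was Cab39l (-0.08, SE 0.0289, edgeR adjusted p = 0.0368). Slc12a2, the sodium-potassium-chloride cotransporter, differed by -0.05 (SE 0.0708), Igfbp2 by 0.09 (SE 0.180) and the sulfate transporter Slc13a4 by -0.46 (SE 0.339), none of which passed. In α-IgLON5#1 against pCtrl hippocampus, Enpp2 was lower by the adjusted p alone (-0.44, SE 0.132, edgeR adjusted p = 0.0402) and Slc29a4 higher (0.71, SE 0.215, edgeR adjusted p = 0.0456). The other 20 tested genes did not pass, and 7.01% of all genes tested passed by that rule, a share near that of the list. Without pCtrl mice 10 and 37 the values of Enpp2 and Slc29a4 were -0.09 (SE 0.122, edgeR adjusted p = 0.872) and 0.25 (SE 0.177, edgeR adjusted p = 0.688), so neither passed. The part of the neuron marker sums of those libraries in these values was not tested. The median log2 fold change of the 22 was -0.30 against pCtrl with all libraries, and that of the 8 members was -0.56, or -0.07 without Kcne2, beside 0.00 over all genes tested. Against PBS the 22 had -0.08 and the 8 members -0.73, or -0.50 without Kcne2, beside -0.01.

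In the lists of other cells that a dissection next to the ventricle could take along, 5 genes were called with α-IgLON5#1, all in hippocampus and all lower. Tested were 7 ependymal, 10 fibroblast, 2 fenestrated endothelium, 7 thalamus and habenula, 7 striatum, 5 pituitary, 8 hippocampal neuron and 8 cortical neuron markers. Of all genes tested, 2.45% were called against pCtrl in hippocampus and 2.67% against PBS. Of the ependymal markers Ccdc153 was called lower in hippocampus against PBS (-4.39, SE 1.16, edgeR adjusted p = 0.0252), and without PBS mice 32 and 74 the value was 0.80 (SE 1.06, edgeR adjusted p = 0.842). Of the pituitary markers Prl and Cga were called lower against PBS (-6.71 and -8.70) and Pomc lower against pCtrl (-4.81). Without PBS mice 32 and 74 the first values were -1.41 and -2.93 (edgeR adjusted p = 0.761 and 0.642), and without pCtrl mice 10 and 37 that of Pomc was -3.83 (edgeR adjusted p = 0.212), so none was called, and the summed pituitary level was 1.92 to 41.3 CPM in α-IgLON5#1 hippocampi, 7.48 to 220 CPM in pCtrl and 4.13 to 3889 CPM in PBS. Of the cortical neuron markers Cplx3 was called lower in hippocampus against pCtrl (-1.18, SE 0.301, edgeR adjusted p = 0.0174), and without pCtrl mice 10 and 37 it was -0.51 (edgeR adjusted p = 0.619). None of the 10 fibroblast, 2 fenestrated endothelium, 8 thalamus and habenula, 8 striatum or 8 hippocampal neuron markers was called between treatments. By the adjusted p alone, Prkcd, a protein kinase C gene on the thalamus and habenula list, was higher with α-IgLON5#1 in all 4 comparisons with controls. Its hippocampal level was 21.3 to 31.3 CPM in α-IgLON5#1, 12.8 to 17.1 CPM in pCtrl and 11.8 to 16.1 CPM in PBS, so that in hippocampus α-IgLON5#1 did not overlap with either control. Against pCtrl the ranges of 11.7% of all genes tested did not overlap there, and the share against PBS was not computed. The log2 fold change of Prkcd was 0.76 against pCtrl (SE 0.171, edgeR adjusted p = 0.00662) and 0.96 against PBS (SE 0.162, edgeR adjusted p = 0.000218) in hippocampus, and 0.80 and 0.78 (edgeR adjusted p = 0.00294 and 0.00361) in cortex, while without pCtrl mice 10 and 37 the first was 0.86 (edgeR adjusted p = 0.0576). Slc17a6, Drd1 and Tbr1 were lower in hippocampus against pCtrl by the adjusted p alone (-0.71, -0.82 and -0.64), and none of them passed without those mice. Rorb was lower in cortex against pCtrl (-0.51, edgeR adjusted p = 0.0229). The fibroblast sum ranged from 68.9 to 414 CPM in α-IgLON5#1, 297 to 367 CPM in pCtrl and 143 to 392 CPM in PBS hippocampi. Their part in the member values was not tested.

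The 15240 genes with a mean of at least 1 CPM in hippocampus, members left out, were ranked over the 13 hippocampi. The measure was r with the mean standardised level of the 9 members. Listed epithelial genes below that mean, among them Kcnj13 (0.592 CPM) and Cldn2 (0.351 CPM), could not enter the ranking. The 10 highest were Ccdc162, E130307A14Rik, Rsph1, Itgbl1, BC049715, Champ1, Gm43379, Tmeff2, Sp9 and Lsamp, with r from 0.83 to 0.89. None of them was a listed epithelial gene. In the 14 cortices the same genes had r from -0.69 to 0.56. Rsph1, a radial spoke gene of motile cilia, had r = 0.86 in hippocampus and -0.48 in cortex, and Lsamp, an IgLON family member, 0.83 and 0.42. These r describe likeness of levels within libraries that share depth and dissection.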

How the data were processed

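RNA was sequenced from 27 hippocampus and cortex samples after stranded poly(A) library preparation. The authors aligned the paired reads to GRCm38 with STAR and deposited a table of raw counts per gene, whose counting tool and strand setting are not given in the sources used here. Gene names and positions came from GENCODE M21, which matched 55227 of 55487 rows. A gene entered the test if 4 or more libraries held 10 or more of its counts, which left 20271 genes. A quasi-likelihood model in edgeR 4.0.16 (R 4.3.3) with 6 tissue and treatment groups and TMM factors gave 8 contrasts with Benjamini-Hochberg adjustment over all genes tested. A call needed an adjusted p under 0.05 and a fold above 2. DESeq2 1.42.0, other scalings and filters, blocks and left-out libraries were alternatives, and the edgeR fit was tested on simulated counts. CPM used effective library sizes, and log2 CPM a prior count of 1. Correlations used 100000 permutations. The 13 mice with both tissues pair the libraries by animal, as the labels number them. Ttr and called members were reported in full, and all members by level. The members and gene lists were chosen with earlier results of these data known. Replicates are separate mice. No pair of libraries within a group agreed within counting noise (lowest chi-square per degree of freedom 4.82 over 48 pairs).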

Additional observations from a re-analysis of the deposited data

Results flagged for a closer look

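Among the 54 sets of values formed by 9 genes in 6 groups, 3 held a library farther from the rest of its group than Dixon's test allows at 95%, and chance flags about 1 in 20 such sets. Clic6 in the cortex of pCtrl mouse 10 was 0.344 CPM (11 counts), where the other 4 cortices of that group held 0.702 to 0.852 CPM. Otx2 in the hippocampus of α-IgLON5#1 mouse 9 was 0 CPM (0 counts), where the other 3 held 3 to 6 counts. Sostdc1 in the hippocampus of pCtrl mouse 37 was 0.523 CPM (22 counts), where the other 3 held 0.903 to 1.01 CPM, and the same library was the lowest of the hippocampi in Kl and in the sum of hippocampal neuron markers.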

How the results depend on the processing

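The number of members called between tissues stayed at 2 to 3, and between treatments at 0, under all alternatives other than leaving out single libraries. Leaving out pCtrl hippocampi 10 and 37 together, chosen after seeing the data, changed no call of a member, while the genes called for α-IgLON5#1 against pCtrl in hippocampus went from 496 to 199. Leaving out PBS hippocampi 32 and 74 together, also chosen after seeing the data, changed no call of a member, took Kcne2 below the filter and turned the Ttr difference between tissues to -0.060. Leaving out 1 library gave 0 to 1 called members for α-IgLON5#1 against pCtrl in hippocampus (Clic6, without α-IgLON5#1 mouse 17) and 0 to 1 against PBS (Clic6 without mouse 17, Kcne2 without PBS mouse 14). With the animal as a block, 2 members were called between tissues and 0 in the interaction, where the Ttr value was -0.54, and the pairing changed no other call of a member. A call includes the fold threshold, so a change by the adjusted p alone would not show in these counts. For Ttr the sign was not stable where the difference was small. It became 0.19 for α-IgLON5#1 against pCtrl in cortex with only mice 8 to 17, and -0.16 for pCtrl against PBS in hippocampus as a difference of mean log2 CPM. With 1 library left out it ranged from -0.74 to 0.15 for pCtrl against PBS in cortex, from -0.73 to 0.14 for α-IgLON5#1 against pCtrl in cortex, from -0.17 to 0.24 between tissues, from -0.66 to 0.60 for pCtrl against PBS in hippocampus and from -1.19 to 0.0249 in the interaction. A two-sided exact permutation test of log2 CPM, not adjusted, gave in hippocampus, against pCtrl and PBS, p = 0.0286 and 0.0317 for Kcne2 (no support for a difference, given how it passed the filter), 0.114 and 0.0397 for Clic6 and 0.0857 and 0.0238 for Otx2, and in cortex 0.0397 and 0.0476 for Clic6, where 0.0286 is the smallest that 4 against 4 allow and 0.0159 that 4 against 5 allow. For Ttr the exact p was 0.151 and above. Over all alternatives, 574 values counted as unchanged and 15 changed sign. Unchanged meant the same direction and side of the threshold for fold changes, and the same sign for correlations. Counts of called members that went from 2 to 3 also counted as unchanged. A further 5 values met a rule they had missed. These were Sostdc1 between tissues, which had missed only the fold threshold, and Clic6 and Kcne2 between treatments, which had missed the adjusted p. Another 6 had an unadjusted exact permutation p under 0.05, which is another scale (Clic6, Kcne2 and Otx2). The last 3 were counts of called members that rose from 0 to 1, and none lost a call. Low counts limit Folr1, Kcne2 and Otx2, whose libraries often lie near the 3 counts that bound detection.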
